A study of Solanum lycopersicum with 15 samples.

Results

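The genes described here are 134 tomato genes whose transcripts were more abundant in *slscz* hairy roots than in both *slexo1* and wild-type hairy roots, out of 34688 genes in the count table. They were picked from the measured values themselves. Counts were divided by the total of their library, multiplied by 1000000 (CPM) and used as log2(CPM+1). A member had all 6 *slscz* libraries above the other 9 libraries, an *slscz* mean at least 0.8 above the wild-type mean, and an *slexo1* mean within 0.4 of the wild-type mean. The height of these genes in *slscz* and their nearness to wild type in *slexo1* are therefore a description. Counts of calls in these contrasts are printed beside those of all genes for the main fits, and nothing is read from them.

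RNA was profiled in hairy roots of the tomato cultivar M82, which form after infection of cotyledons with *Rhizobium rhizogenes*. The groups were *slscz-hr5* and *slscz-hr12*, with *SlSCZ* edited by Cas9, *slexo1-hr6* and *slexo1-hr7*, with *SlEXO1* edited by Cas9, and wild-type roots, with 3 libraries each. All roots grew on a medium with 3% sucrose, and a library pooled the terminal 3 cm of 6 to 7 root tips of the same stage. Sequencing was by QuantSeq, in which a read comes from the 3′ end of a transcript. Each mutant line is 1 transformed root that was subcloned, so the libraries of a line share that root. The mutant lines carry a Cas9 vector with kanamycin resistance, and wild-type roots were transformed without a vector. An effect of the vector therefore cannot be told apart from the mutation against wild type. Both *slscz* and *slexo1* carry such a vector, and whether its effect was equal in them was not tested. Nothing in the labels says how the libraries of a group were kept apart, and p-values measure only the spread between these libraries.

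SCHIZORIZA is a heat-shock-type transcription factor that, in *Arabidopsis*, is needed for asymmetric divisions of root stem cells and for cortex identity. The tomato root has an exodermis below the epidermis, a layer absent from *Arabidopsis*, whose walls carry a polar cap of lignin and later suberin. *SlSCZ* and *SlEXO1* are the transcription factor genes that the study examined for their part in restricting this lignin to the exodermis. In whole root tips, fewer cells of a type and less RNA per cell cannot be told apart.

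*SlSCZ* (Solyc04g078770, on chromosome 4 by its identifier) was targeted with 3 guides of 20 bases, shown because they made both *slscz* lines. In both lines the study lists a deletion from the first exon to the second with an early stop.
guide 1: tattgtttcttggggtgaag
guide 2: cattcatatcatacgggttc
guide 3: acccgagtaattataacccg
The *SlSCZ* transcript was counted 18 to 31 times per *slscz* library, 18 to 39 times per *slexo1* library and 15 to 53 times per wild-type library. These are 6.41 ± 1.98 CPM in *slscz* (SD, n = 6), 5.04 ± 1.07 CPM in *slexo1* (n = 6) and 4.80 ± 1.00 CPM in wild type (n = 3). Reads come from the 3′ end, and whether that end lies in the deleted part was not tested, so these counts check neither the edit nor the labels. *SlSCZ* was not a member, and neither was *SlEXO1*.

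Library totals lay between 2726538 and 8942833 counts (median 4800487), so 3 counts amount to 0.336 to 1.10 CPM. Of 6 genes used as endodermal markers and 5 exodermis-enriched factors, 0 were members. In the paper's reporters, *SlCASP3* and *SlSGN3* were also active in cortex and exodermis, and *SlCASP1* to some extent. The summed level of the endodermal markers was 97.6 to 136 CPM in *slscz*, 70.4 to 108 CPM in *slexo1* and 109 to 125 CPM in wild type. *SlCASP3* was its largest part, with a mean of 63.1 CPM in *slscz*, 34.6 CPM in *slexo1* and 51.0 CPM in wild type. The summed exodermis-enriched factors were at 81.8 to 111 CPM in *slscz*, 170 to 197 CPM in *slexo1* and 127 to 135 CPM in wild type. *SlNAC041* made up most of that sum and *SlMYB107-a* was at or near 0 in every group. Single markers did not all follow their sum. *SlSHN1*, of the exodermis-enriched factors, had 4.67 to 8.27 CPM in *slscz*, 4.81 to 10.3 CPM in *slexo1* and 2.69 to 3.24 CPM in wild type. *SlMYB36*, of the endodermal markers, had 5.13 to 10.6 CPM in *slscz*, 10.2 to 16.2 CPM in *slexo1* and 12.2 to 15.5 CPM in wild type. Ranges of the endodermal sum overlapped between *slscz* and wild type, as did those of each endodermal marker except *SlMYB36*. The exodermis-enriched sum was lower in *slscz* than in wild type. In *slexo1* the endodermal sum was below that of wild type and the exodermis-enriched sum above it. The part of either set in the members' levels was not tested.

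The members made up a larger share of the transcripts in *slscz*. They held 0.688% to 0.868% of all counts in the 6 *slscz* libraries, a mean of 0.795% ± 0.0689 (SD). The share was 0.308% to 0.419% in the 6 *slexo1* libraries (0.371% ± 0.0451) and 0.335% to 0.395% in the 3 wild-type libraries (0.366% ± 0.0303). The *slexo1* range encloses the wild-type range. That the *slscz* range lies above both was set by the rule, and only the size of the gap is a description. The median member lay 0.95 to 1.16 log2 units above its wild-type mean in the *slscz* libraries. In the *slexo1* libraries this median was between -0.16 and 0.20, and in the wild-type libraries between -0.10 and 0.09.

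**Figure D1:**
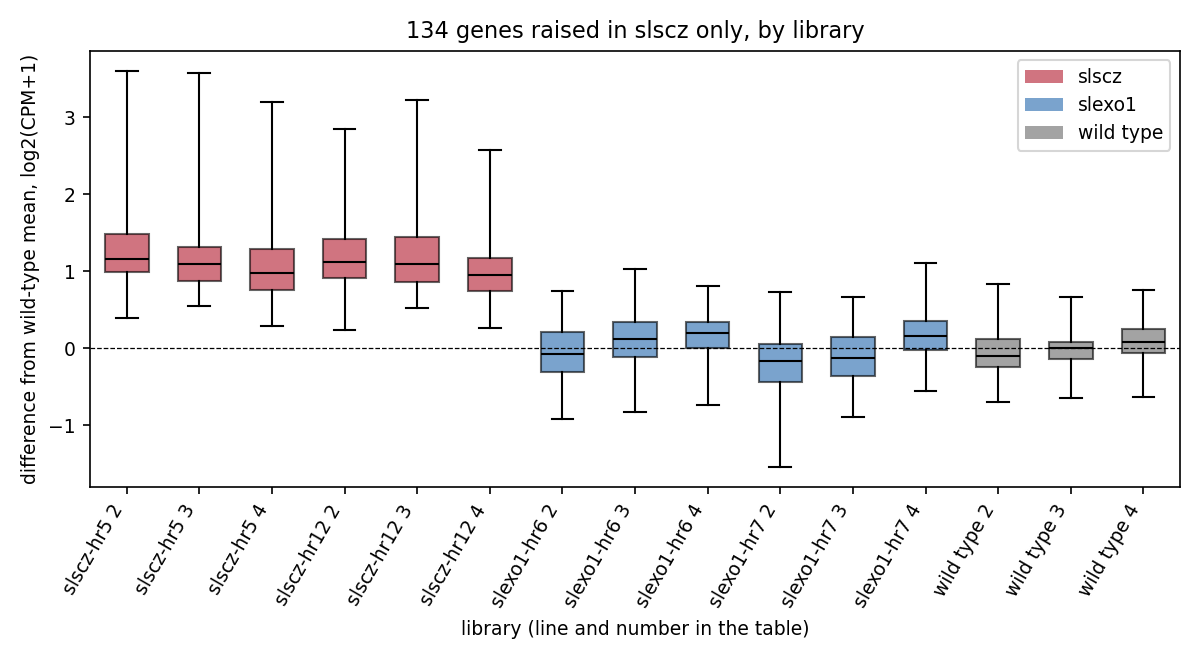
Boxplots of the 134 members in each library, as the difference from the wild-type mean on the log2(CPM+1) scale; boxes span the quartiles, lines the medians and whiskers the full range. The medians of the 6 slscz libraries lie between 0.95 and 1.16, and those of the slexo1 libraries between -0.16 and 0.20.

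Over the 134 members the *slscz* mean was 0.80 to 2.81 above the wild-type mean on the log2(CPM+1) scale, with a median of 1.04. It was at least 1 above it for 78 members and at least 2 above it for 5. Both *slscz* lines taken singly were at least 0.8 above wild type for 113 members. The *slexo1* mean differed from wild type by -0.38 to 0.39, with a median of 0.03. It was above wild type for 73 members and below it for 61, a split that differed in the fit across all genes given below. In 106 members both *slexo1* lines lay within 0.4 of wild type, and in 47 the lines fell on opposite sides of it.

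**Figure D2:**
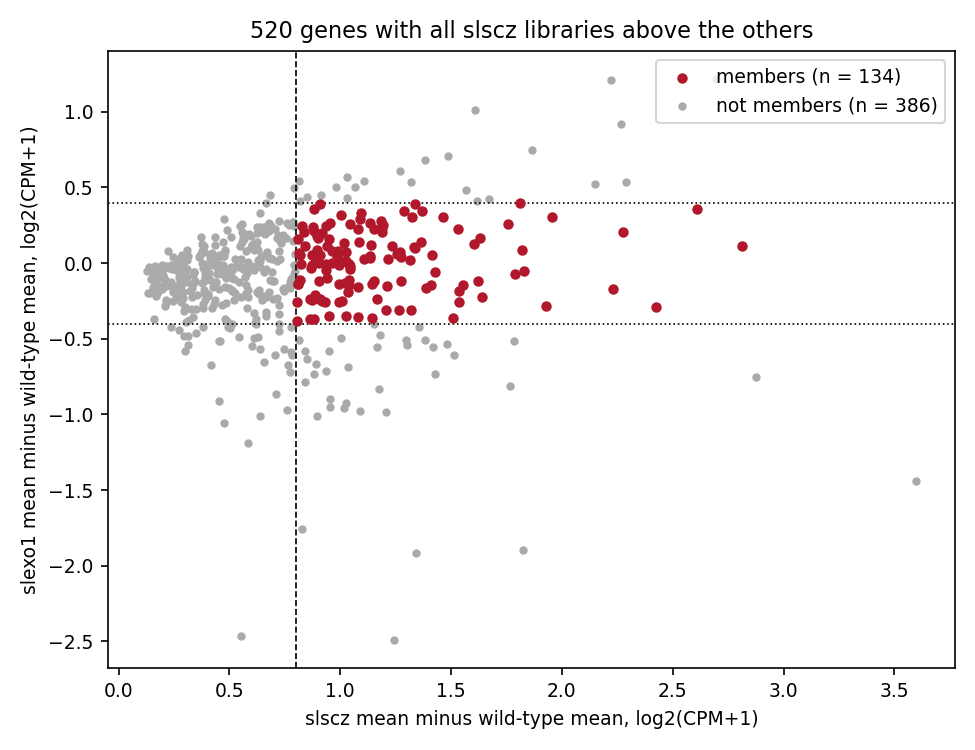
The 520 genes with all 6 slscz libraries above the other 9, each a point at its slscz minus wild-type difference (x axis) and its slexo1 minus wild-type difference (y axis), both in log2(CPM+1); the dashed line is the threshold of 0.8 and the dotted lines are the limits of 0.4. The 134 members fill the band to the right of the dashed line, with 78 of them at 1 or more.

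The steps of the rule were unequal. All 6 *slscz* libraries were above the other 9 for 520 genes, and 194 of them also reached a difference of 0.8. The limit on *slexo1* then removed 60 genes, 23 with a higher and 37 with a lower *slexo1* mean. Another 287 genes met all criteria except the difference of 0.8. The members just inside that threshold were Solyc08g075830 (0.805), Solyc02g089620 (0.805) and Solyc06g064940 (0.807), and the genes just outside were Solyc07g052240 (0.796), Solyc03g007960 (0.795) and Solyc08g082990 (0.792). At the limit of 0.4 the members just inside were Solyc10g054840 (0.395), Solyc02g077620 (0.390) and Solyc02g087870 (0.389). Those just outside were Solyc12g005787 (-0.403), Solyc01g009300 (0.407) and Solyc01g095515 (0.411). The list is thus a slice of a continuous distribution at both edges. The same rule turned round, for genes lowered in *slscz* only, gave 221 genes.

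The count table does not pair identifiers with gene products, and 0 of its identifiers matched the RefSeq gene table. For 8 members a product name is known. Those names come from a set of genes that was chosen on these same libraries, so the members' height in *slscz* is no independent evidence. The study also chose that set for expression in the exodermis in single-cell data, so the 8 do not stand for the members at large. Among the enzymes, the oxidoreductase Solyc11g010400 had 6.82 to 17.1 CPM in *slscz* (median 11.7). It had 0.830 to 3.36 CPM in *slexo1* (median 1.78) and 2.69, 1.57 and 0.668 CPM in wild type. The lowest *slscz* library was above the highest of the others, as the rule requires of every member. The difference from wild type of 2.28 on the log2(CPM+1) scale was the largest of the 8. The peroxidase Solyc07g049240 had 5.80 to 14.8 CPM in *slscz* (median 7.64), 1.33 to 2.69 CPM in *slexo1* (median 1.53) and 2.09, 1.23 and 3.56 CPM in wild type. Plant peroxidases oxidise phenolic substrates with hydrogen peroxide, and some of the secreted ones couple monolignols into lignin. The phosphatidylinositol phosphodiesterase Solyc01g111250, by its name an enzyme that cleaves a membrane phospholipid, had 12.2 to 18.3 CPM in *slscz* (median 14.5). It had 5.15 to 9.53 CPM in *slexo1* (median 6.79) and 9.62, 3.82 and 5.59 CPM in wild type. Here the wild-type libraries spread over the whole *slexo1* range. The oxoacid-dependent oxidase Solyc02g093070 was the rarest of the 8, with 1.19 to 2.72 CPM in *slscz*, 0 to 0.830 CPM in *slexo1* and 0.597, 0.447 and 0.223 CPM in wild type. These values are close to the level of 3 counts, and the gene did not pass the filter on low counts.

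Of the transport proteins, the amino acid transporter family member Solyc03g078150 had 4.37 to 10.3 CPM in *slscz* (median 6.27). It had 1.03 to 3.36 CPM in *slexo1* (median 1.52) and 0.597, 1.79 and 2.45 CPM in wild type. The potassium channel Solyc10g024360, of a family that lets potassium ions cross membranes, had 6.60 to 9.61 CPM in *slscz* (median 8.78). It had 1.83 to 5.61 CPM in *slexo1* (median 3.32) and 2.09, 2.80 and 4.23 CPM in wild type. Its *slscz* libraries varied little, with an SD of 1.34 CPM around a mean of 8.35 CPM (n = 6). The fasciclin-like arabinogalactan Solyc12g006110, of a class of cell-surface glycoproteins, had 9.58 to 16.5 CPM in *slscz* (median 14.3). It had 2.79 to 8.75 CPM in *slexo1* (median 6.55) and 5.97, 4.25 and 4.01 CPM in wild type. Its lowest *slscz* library had 9.58 CPM and its highest *slexo1* library 8.75 CPM, so the groups, which the rule keeps apart, nearly touch. The hypothetical protein Solyc09g061715 had a median of 12.6 CPM in *slscz* (mean 12.7 ± 2.10, SD, n = 6), 2.03 to 7.14 CPM in *slexo1* (median 3.68) and 3.28, 3.91 and 5.34 CPM in wild type.

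**Figure D3:**
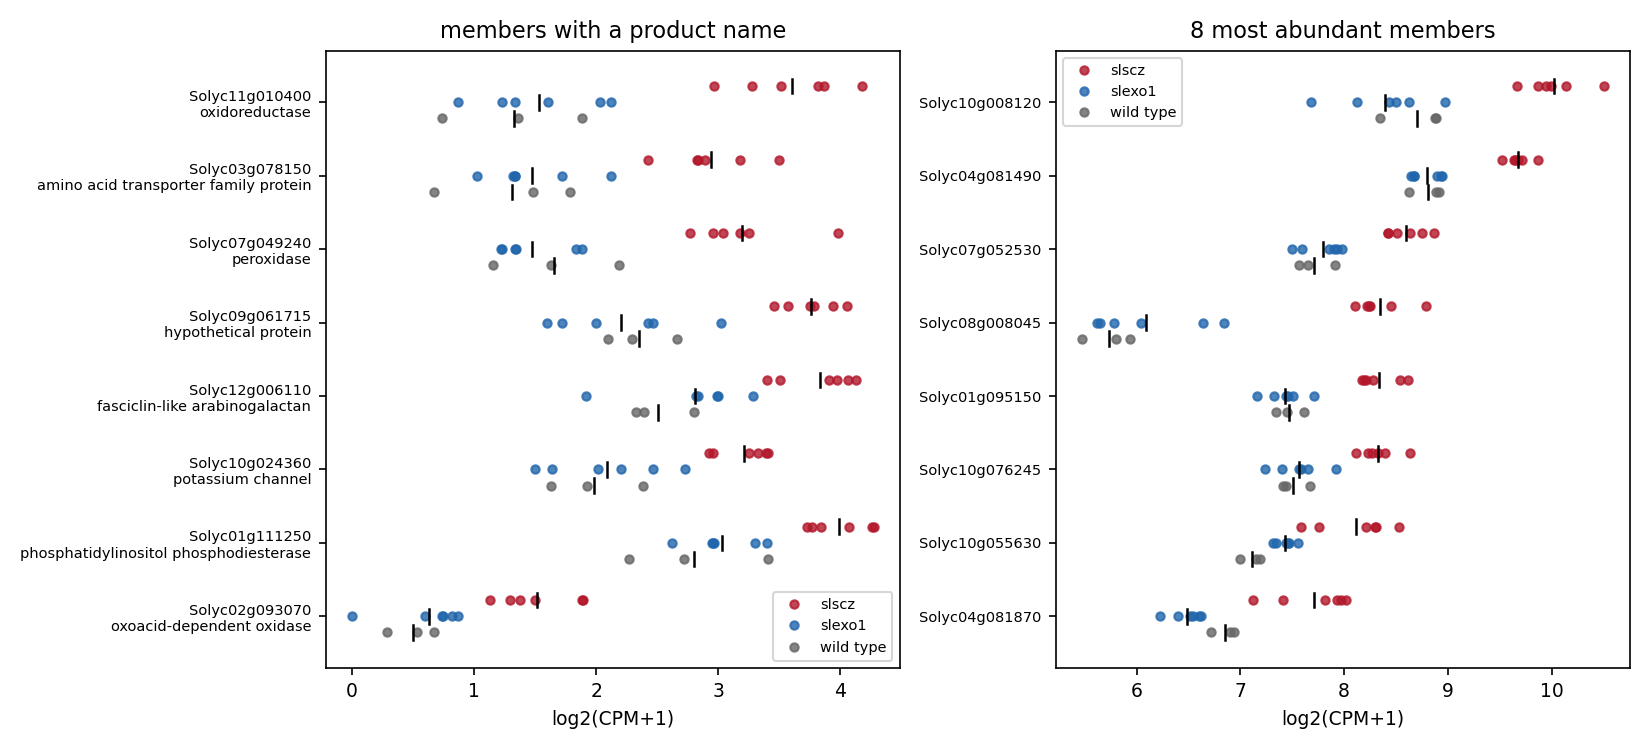
Level of the 8 members with a product name (left) and the 8 most abundant members (right) in every library, in log2(CPM+1); each point is a library, coloured by genotype, and black ticks are group means. In every row the 6 slscz points lie to the right of all slexo1 and wild-type points, as the rule requires, and the scales of the panels differ.

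The largest difference from wild type belonged to Solyc02g080790, at 2.81 on the log2(CPM+1) scale. It had 2.92 to 17.2 CPM in *slscz* (median 10.3), 0 to 2.06 CPM in *slexo1* (median 0.542) and 0.299, 0.559 and 0.668 CPM in wild type. The 3 wild-type values stand for 1, 5 and 3 counts, so the size of this difference is poorly set. The second, Solyc08g008045, rests on many more reads. It had 274 to 440 CPM in *slscz* (median 303), 48.1 to 113 CPM in *slexo1* (median 59.4) and 54.6, 43.4 and 60.1 CPM in wild type. Its *slscz* mean was 6.22 times its wild-type mean, and the gap of 1.27 log2 units between its lowest *slscz* library and its highest other library was the widest of all members. The remaining members among the 10 with the largest differences were Solyc12g011030 (2.43), Solyc11g010400 (2.28), Solyc03g097870 (2.23), Solyc11g040140 (1.96), Solyc04g081860 (1.93), Solyc08g066650 (1.83), Solyc02g070755 (1.82) and Solyc10g054840 (1.81). Of these, Solyc02g070755 was the best counted, with 98.9 ± 16.3 CPM in *slscz* (SD, n = 6), 29.3 ± 7.85 CPM in *slexo1* (n = 6) and 27.4 ± 6.34 CPM in wild type (n = 3).

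The members were mostly genes of moderate level. Their median over *slscz* means was 21.9 CPM, their median over *slexo1* means was 10.6 CPM, and their median over wild-type means was 10.5 CPM. For all 24813 genes with a count these medians were 4.60 CPM in *slscz*, 5.24 CPM in *slexo1* and 4.44 CPM in wild type. Adding 1 before taking logs shrinks the differences of low genes, so the rule itself favours better counted ones. In *slscz*, 99 members had at least 10 CPM, 19 had at least 100 CPM and 22 had less than 5 CPM. In wild type, 6 members had 3 counts or fewer in every library. The 10 most abundant members carried 52.0% of the summed CPM of the list in *slscz*.

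The most abundant member was Solyc10g008120, with 814 to 1449 CPM in *slscz* (median 1000.4). It had 204 to 502 CPM in *slexo1* (median 353) and 324, 468 and 472 CPM in wild type. The next, Solyc04g081490, had 736 to 936 CPM in *slscz* (median 809), 399 to 493 CPM in *slexo1* (median 442) and 393, 471 and 481 CPM in wild type. These genes differ in the evenness of their libraries. The *slscz* mean of Solyc04g081490 was 821 ± 66.1 CPM (SD, n = 6), against 1054 ± 219 CPM for Solyc10g008120. The other members among the 8 most abundant were Solyc07g052530, Solyc08g008045, Solyc01g095150, Solyc10g076245, Solyc10g055630 and Solyc04g081870, with *slscz* means of 214 to 390 CPM. The *slscz* mean was 1.77 to 2.06 times the wild-type mean in these 6, except in Solyc08g008045, where it was 6.22 times.

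By the chromosome number in the identifiers, members came from chromosomes 1 to 12. They were 0.54% of all genes with a count, and 0.394% to 0.696% of those of the single chromosomes, except chromosome 5. There 2 of 1644 genes were members (0.122%). Neighbours were few. Solyc04g081860 and Solyc04g081870 follow each other in the table, and Solyc04g081870 and Solyc04g081900 are separated by 2 genes. Solyc07g052530 and Solyc07g052540 are also adjacent, and 2 genes lie between Solyc02g087840 and Solyc02g087870. Neighbours were not alike in level. Solyc04g081860 had a mean of 30.4 CPM in *slscz* and Solyc04g081870 had 214 CPM, both as counts not divided by gene length. Their *slscz* differences from wild type were 1.93 and 0.86, and their *slexo1* differences -0.28 and -0.37. Whether neighbours are copies that share reads was not tested.

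In the fit across all genes, 127 of the 134 members passed the filter on low counts, in which a gene that is high in *slscz* alone can pass. A gene was called at an adjusted p of at most 0.05 (limma-voom, Benjamini-Hochberg) with a change of at least 1.3-fold. Against wild type, 124 of the 127 were called higher in *slscz*, where 6.84% of all 16189 genes tested were. Against *slexo1*, all 127 tested were called higher, where 11% of all genes were. The rule used both contrasts, and nothing is read from these counts. The 3 members not called against wild type were Solyc03g097620, Solyc04g076770 and Solyc01g067510.

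Against wild type, 0 of the 127 tested members were called in *slexo1*, where 8.84% of all genes were called in either direction. The rule used this contrast too, and nothing is read from the count. With limma-voom 9 members had an unadjusted p under 0.05, and edgeR's quasi-likelihood test called 1 member and DESeq2 3, all lower. Without the 4 mutant libraries numbered 4, limma-voom called 8 members, all lower, and without those numbered 2 it called 1, higher. In the limma-voom fit of all libraries, 4.95% of all genes were called lower and 3.89% higher. Shares of all genes in the other fits are not printed here, and nothing is read from these counts of members. The scaling bears on the sign of such values. The median over all genes tested was 0.03 with TMM scaling and 0.15 with library size only. The median of the members was -0.09 with TMM and 0.03 with library size, which is below the median of all genes under both. With TMM, 42 of the 127 members were above wild type in *slexo1* and 85 below, while 53.7% of all genes were above. The rule bound this difference and kept every *slexo1* library below those of *slscz*. The members' medians and signs are therefore a description, and no shift in *slexo1* is read from them.

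The rule did not use the difference between *slscz-hr5* and *slscz-hr12*, but it asked every library of both lines to lie above the other 9. That limits how far the lines can differ, so the following counts are not independent of the choice of genes. Here 0 of 127 members were called, and 0.105% of all genes were called in either direction. With limma-voom 8 members had an unadjusted p under 0.05, and edgeR and DESeq2 also called 0. The share of all genes at that unadjusted p is not given, so nothing is read from the 8. The members' log2 fold changes between the lines ran from -0.99 to 1.53 with a median of 0.06, and 75 were above 0 and 52 below. Of all genes tested, 50.8% were above 0. Their median absolute size was 0.18, and that of all genes tested was 0.15. The smallest adjusted p belonged to the gene with the largest genotype difference, Solyc02g080790. Its *slscz-hr5* libraries had 17.2, 16.9 and 12.7 CPM, and its *slscz-hr12* libraries had 7.74, 7.87 and 2.92 CPM. The lines do not overlap, and the log2 fold change of 1.53 (± 0.33 SE; limma-voom adjusted p = 0.123) missed the threshold. Solyc07g052530 had 430, 466 and 397 CPM in *slscz-hr5* and 363, 341 and 342 CPM in *slscz-hr12*, again without overlap. Its log2 fold change was 0.35 (± 0.11 SE; limma-voom adjusted p = 0.722).

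The rule likewise kept every *slexo1* library below those of *slscz* and bound the *slexo1* mean. Between *slexo1-hr6* and *slexo1-hr7*, 0 of 127 members were called and 0.346% of all genes were. With limma-voom 8 members had an unadjusted p under 0.05, again without a share of all genes, and edgeR and DESeq2 called 0. The log2 fold changes ran from -1.18 to 1.77 with a median of 0.09, and 81 members were above 0, where 49.4% of all genes were. The median absolute size was 0.22 for the members and 0.15 for all genes. Solyc01g087970, chosen after its values were seen, had the smallest adjusted p. It had 10.5, 11.8 and 10.2 CPM in *slexo1-hr6* and 6.08, 5.31 and 6.55 CPM in *slexo1-hr7*. The wild-type libraries were at 8.66, 7.49 and 8.24 CPM, between the lines, and the log2 fold change of 0.83 between the lines (± 0.21 SE; limma-voom adjusted p = 0.147) was not called.

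**Figure D4:**
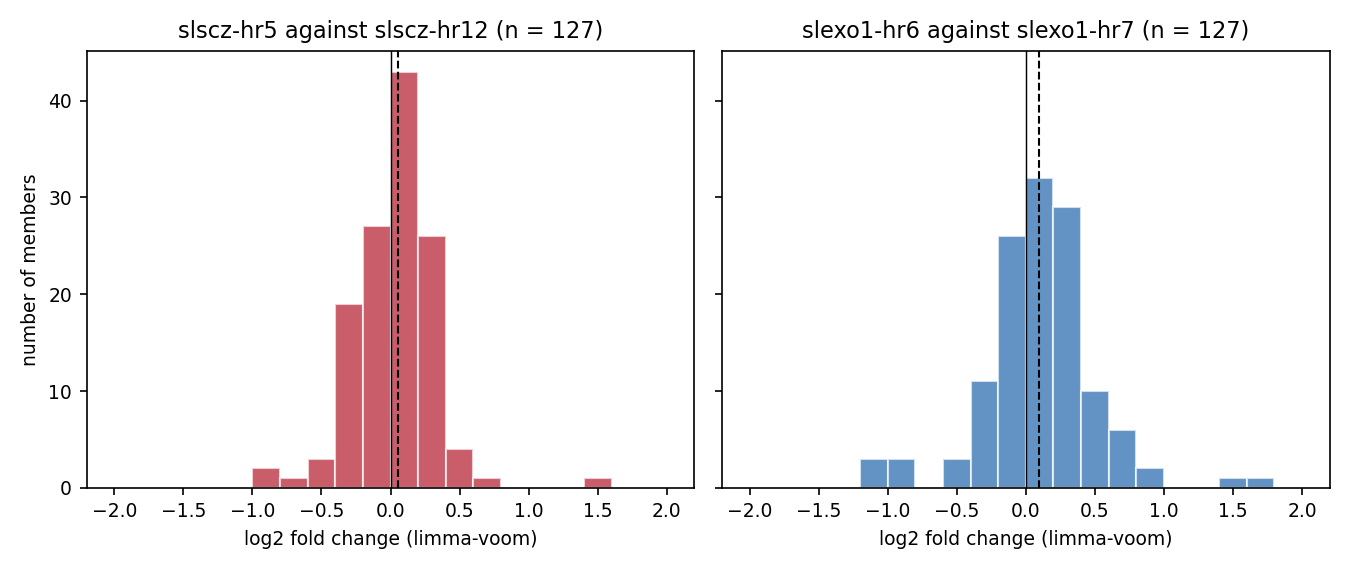
Number of members by log2 fold change between the lines of a mutant, slscz-hr5 against slscz-hr12 (left) and slexo1-hr6 against slexo1-hr7 (right), for 127 members each; the solid line marks 0 and the dashed line the median, 0.06 on the left and 0.09 on the right. The median absolute value is 0.18 in slscz and 0.22 in slexo1.

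The libraries of each mutant line carry the numbers 2, 3 and 4 in the sample descriptions and the count table. The titles of *slexo1-hr7* count from 1 to 3 instead, so its replicate 4 is titled 3, and the descriptions were followed. The rule used the mutant libraries but not their numbers. What replicate 4 stands for is not stated in the labels. Over the 12 mutant libraries, 119 members were tested for replicate 4 against replicates 2 and 3. Of these 1 was called higher and 1 lower, where 1.09% and 3.92% of all 15197 genes tested were. The member called lower was Solyc12g011030, with a log2 fold change of -1.46 (± 0.23 SE; limma-voom adjusted p = 0.00149). In *slscz* it had 6.84 CPM in replicate 4 of *slscz-hr5* against 25.7 and 17.6 CPM in replicates 2 and 3. In *slscz-hr12* it had 6.11 CPM in replicate 4 against 19.3 and 21.4 CPM. Both *slscz* lines thus showed it lower in replicate 4, though the rule kept it above all *slexo1* libraries, which had 0.968 to 1.90 CPM. Solyc11g005460 was called higher, with a log2 fold change of 0.38 (± 0.11 SE; limma-voom adjusted p = 0.0432).

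The joint fit averages over the mutants, and a separate term for each mutant was added after seeing the data. Within *slscz*, 85 of the 119 tested members were lower in replicate 4, with a median log2 fold change of -0.19, and 7 were called lower (4.18% of all genes). Within *slexo1*, 102 of the 119 were higher in replicate 4, with a median of 0.26, and 1 was called higher (0.0395% of all genes). The median over all genes was 0.02 in *slscz* and 0.00 in *slexo1*. The effect of replicate 4 in *slscz* minus that in *slexo1* was below 0 for 111 of 119 members, with a median of -0.36, while 48.8% of all genes were below 0 and their median was 0.01. This difference was called for 6 members, all lower, against 0.355% of all genes called lower. The members' distance between the mutants was thus smaller in replicate 4. The calls rest on few libraries: leaving out 1 mutant library gave 0 to 7 calls, with 0 called without replicate 4 of *slscz-hr12* or without replicate 4 of *slexo1-hr7*. In these fits 108 to 118 members were below 0, with medians between -0.50 and -0.32. Each fit keeps most of the libraries numbered 4, so it cannot show whether the sign rests on them. The members were chosen together on the same libraries, so their signs are not separate observations.

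Solyc10g055630 and Solyc01g090800 are given as examples, chosen after their values were seen. For the better counted Solyc10g055630 the numbers differed within *slscz*. In *slscz* it had 215 CPM in replicate 4 of *slscz-hr5* against 368 and 294 CPM in replicates 2 and 3, and 191 CPM in replicate 4 of *slscz-hr12* against 315 and 313 CPM. In *slexo1* its 6 libraries lay between 158 and 187 CPM. Its difference was -0.73 (± 0.14 SE; limma-voom adjusted p = 0.0252). Solyc01g090800 varied by number in *slexo1* instead. In *slexo1* it had 15.8 CPM in replicate 4 of *slexo1-hr6* against 8.04 and 6.95 CPM, and 17.5 CPM in replicate 4 of *slexo1-hr7* against 10.6 and 8.30 CPM. Its *slscz* libraries lay between 18.1 and 24.8 CPM, and its difference was -1.22 (± 0.24 SE; limma-voom adjusted p = 0.0256).

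**Figure D5:**
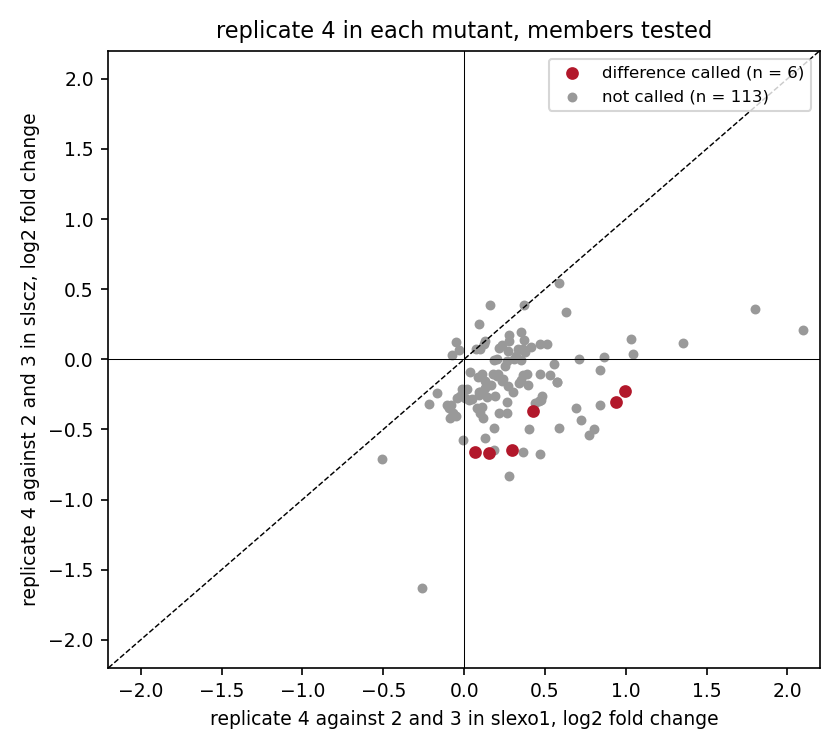
Replicate 4 against replicates 2 and 3 for 119 members, as log2 fold change within slexo1 (x axis) and within slscz (y axis); the dashed line marks equal values, and the 6 members whose difference was called are red. Of the 119 points, 111 lie below the dashed line.

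The genes lowered in *slscz* only, set against the same term, showed the opposite signs. Of the 203 of them that were tested, 155 were higher in replicate 4 within *slscz* (median 0.29), and 166 were lower within *slexo1* (median -0.20). The difference was above 0 for 175 of them, with a median of 0.46. The genes raised in *slexo1* only gave a median difference of 0.29 over 77 tested genes, with 60 above 0. In all 3 lists, which were chosen by rules on the same libraries, the distance between the mutants was smaller in replicate 4. A cause was not tested.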

How the data were processed

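RNA of 15 libraries of tomato hairy roots was measured by QuantSeq 3′ sequencing. After trimming (Trimmomatic), the authors assigned reads to ITAG 4.1 transcripts by kallisto and deposited estimated counts per gene in 1 table that was not normalized. The version of kallisto is 0.46.2 in the submitters' processing notes, and the paper's methods name another. In each library 4.02% to 5.39% of the values were not whole. The table holds 0 columns of other samples. Mutant columns were matched to samples by line and number, and the 3 wild-type columns were used as a group, because the labels number them differently. Version suffixes of identifiers were dropped.

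CPM and the rule used the counts as deposited. For tests, estimated counts were rounded and filtered with filterByExpr (minimum count 10, minimum total 15), scaled by TMM and fitted with limma-voom over all 15 libraries by genotype, by line, or over the 12 mutant libraries by line and replicate number (R 4.3.3, limma 3.58.1, edgeR 4.0.16). The alternatives tried were DESeq2 1.42.0, the quasi-likelihood test of edgeR, other scaling, no filter, a 2-fold threshold, a replicate block, line as a random effect and leaving out each library. The procedure was tested on simulated data. Floors of 3 counts take in counting error alone, because no molecular identifiers were used.

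Members, lists and tests were chosen with earlier results of these data known. Named are the 10 members with the largest difference, the 8 most abundant, those called between lines or for replicate 4 over both mutants, those at the edges of the rule and neighbours by identifier. The 8 members with a product name, and genes said to be chosen after their values were seen, were added. Planned lists by gene product and motifs in promoters could not be formed without a matching annotation.

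Deviations from the line means were correlated between same-numbered libraries. For *slscz-hr5* and *slscz-hr12* the correlation was 0.20, 0.11 and 0.44 for numbers 2, 3 and 4. Differently numbered libraries of these lines reached up to 0.13, so number 3 does not stand out. For *slexo1-hr6* and *slexo1-hr7* it was 0.13, -0.003 and 0.25. Libraries numbered 4 also deviated together across the mutants (0.15 to 0.24). The main tests between lines were not paired, and the replicate block was an alternative.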

Additional observations from a re-analysis of the deposited data

Results flagged for a closer look

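For 6 members the effect of replicate 4 differed between the mutants in the fit described above. The log2 value in *slscz* minus that in *slexo1* was -0.94 for Solyc01g005320, -1.22 for Solyc01g090800, -1.24 for Solyc02g089620, -0.82 for Solyc04g081870, -0.79 for Solyc06g064940 and -0.73 for Solyc10g055630. The adjusted p lay between 0.0145 and 0.0499 (limma-voom), and the difference was below 0 in 111 of 119 members tested. As stated there, 0 of these differences were called without replicate 4 of *slscz-hr12* or of *slexo1-hr7*.

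Among 68 groups of 6 libraries examined for a library far from the others, 3 stood out, about the 1 in 20 that chance gives. All were in *slexo1* and in genes of low level. Replicate 4 of *slexo1-hr7* was high for Solyc03g097870, with a gap to its neighbour of 0.682 of the whole range (1.51 CPM, against 0 to 0.340 CPM in the others). Replicate 2 of *slexo1-hr7* was low for Solyc12g006110 (gap 0.656 of the range, 2.79 CPM against 6.04 to 8.75 CPM). It was also low for Solyc02g093070 (gap 0.687 of the range, 0 CPM against 0.515 to 0.830 CPM).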

How the results depend on the processing

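The number of members was 134 with the rule as given and also 134 with TMM library sizes, of which 116 were shared. It was 78 with a difference of at least 1.0, 77 with an *slexo1* limit of 0.2 and, in fits chosen after seeing the data, 153, 177 and 248 without the 4 mutant libraries numbered 2, 3 and 4, of which 108, 123 and 117 were shared. Leaving out libraries relaxes the rule. Leaving out 1 library gave 125 to 173 members, and 69 of the 134 stayed in all 15 of these. Counts thinned to the smallest library gave 110, of which 91 were shared. The calls that follow are of members only, and shares of all genes are given above for the main fits. The rule used the contrasts between the genotypes, so nothing is read from the calls in them. Against wild type, calls in *slscz* were 77 of 127 at a 2-fold threshold and 89 to 124 when 1 library was left out, the fewest without the wild-type library numbered 3. Against *slexo1* they were 126 or 127 when 1 library was left out, and 119 of 119 with a replicate block. In *slexo1* against wild type, edgeR called 1, DESeq2 3, library size alone 1, the fits without 1 library 0 to 2, and the fits without the 4 libraries numbered 2, 3 and 4 called 1, 0 and 8. All were lower except the 1 with library size alone and the 1 without the libraries numbered 2. Between lines the replicate block left 0 calls in both mutants, and leaving out 1 library gave 0 between the *slscz* lines and 0 to 1 between the *slexo1* lines, the 1 without replicate 4 of *slexo1-hr7*. For replicate 4 over both mutants, the 2 calls became 1 with edgeR, DESeq2, library size alone, no filter and a 2-fold threshold, and 1 to 5 without 1 library, with 5 without replicate 4 of *slexo1-hr7*. The difference of replicate 4 between mutants was called for 6 members with edgeR and DESeq2, for 4 with library size alone, for 2 at a 2-fold threshold and for 0 to 7 without 1 library. Of 608 values of named genes in *slscz* against wild type under the alternatives, 585 kept their side of the threshold, 23 lost their call and 0 changed sign. The rule put every *slscz* library of these genes above wild type, so nothing is read from their signs. The causes were not tested. Depth limits the 7 members that were not tested and the 22 members under 5 CPM in *slscz*.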
